A study of Mus musculus with 12 samples.

Results

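The 10 core circadian clock genes *Per1*, *Per2*, *Per3*, *Arntl*, *Clock*, *Npas2*, *Cry1*, *Cry2*, *Nr1d1*, and *Dbp* were followed through the mouse brainstem after neonatal morphine. They were taken by symbol from the 55418 genes of the count table, and all 10 were among the 18608 genes that passed the filter on low counts in the sex-combined fit. The table holds 12 CFW mice (an outbred stock) at P15, 3 of each sex given morphine and 3 of each sex given saline, with 1 library per mouse. Pups received saline or 15 mg/kg morphine sulfate subcutaneously in 2 injections a day from P1 to P14, and tissue was taken on the next morning, in the first hours of a 12 h light phase. The stated interval from the last injection, 16 h, and the stated clock times, 18 h apart, do not match, and they place the tissue 1.5 h or 3.5 h after lights on. A single nominal time of day gives no rhythm, phase, or amplitude. The mice carried no transgene or deletion, and no label ties a library to its dam.

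The mammalian clock is a transcriptional feedback loop. CLOCK, or its relative NPAS2, pairs with BMAL1 (encoded by *Arntl*) and activates genes through E-boxes, among them the *Per* and *Cry* genes, whose proteins return to repress that activation. REV-ERBα (*Nr1d1*) represses *Arntl* through ROR elements, and DBP drives an output branch through D-boxes. In many rhythmic tissues the *Per*, *Nr1d1*, and *Dbp* transcripts peak at a time of day far from the peak of *Arntl*.

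The stretches of promoter that hold these elements are printed because they set out which members share a regulatory motif. RefSeq promoters on GRCm38.p6, windows of 300 bases that lie mostly before a transcript start, were found for 9 of the 10 members, and *Per2* was not among them. Capitals mark the matched motif, and the strand is that of the gene.
*Per1* (chr11:69098763-69098808, + strand, E-box): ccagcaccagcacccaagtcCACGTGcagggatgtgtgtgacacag
*Per3* (chr4:151044796-151044890, - strand, 2 D-boxes): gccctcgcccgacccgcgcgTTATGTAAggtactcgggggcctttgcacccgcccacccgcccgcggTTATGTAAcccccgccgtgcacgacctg
*Cry1* (chr10:85185089-85185153, - strand, E-prime box and E-box): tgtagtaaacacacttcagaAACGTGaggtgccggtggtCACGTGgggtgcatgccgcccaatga
*Cry2* (chr2:92434210-92434255, - strand, E-prime box): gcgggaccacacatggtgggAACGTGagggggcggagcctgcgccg
*Nr1d1* (chr11:98775380-98775425, - strand, E-prime box): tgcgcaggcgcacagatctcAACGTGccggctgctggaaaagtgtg
*Arntl* (chr7:113207530-113207558, + strand, ROR element): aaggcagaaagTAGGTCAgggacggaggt

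The letters searched on both strands were CACGTG for the E-box, CACGTT for the E-prime box, TTATGTAA or TTACGTAA for the D-box, TAGGTCA for the ROR element, and TGACGTCA for the CRE, which may overlap one another. Among all 32851 promoters, 7.15% held an E-box, 4.68% an E-prime box, 1.06% a D-box, 2.61% the ROR element, and 1.79% a CRE. *Per3* was the member with D-boxes, at 205 and 158 bases before its start site, and *Arntl* the member with a ROR element, 30 bases after its start. No listed motif was found in the windows of *Dbp*, *Clock*, and *Npas2*, and no member window held a CRE. A match is a description of the letters and not a measured binding site.

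Totals ran from 27850565 to 48097947 counts per library. The library saline male 3 stood apart from the rest: mitochondrial transcripts took 6.79% of its counts, the highest share, and ribosomal protein genes 0.577%, the lowest. On the first principal component of all other tested genes (47.2% of their variance after removal of group means), saline male 3 scored -0.72, and the other 11 libraries lay between -0.22 and 0.38. In the library labelled morphine male 6, *Xist*, which marks the inactive X chromosome, reached 380.1 CPM (counts scaled to a common library total) against at most 2.64 CPM in the other males, while the Y-linked *Ddx3y* was at 12.8 CPM against at least 114.8 CPM, so this library went against a purely male label. Its results below keep that name. Hindbrain *Hoxb5* lay between 24.0 and 38.6 CPM. A description of the extraction names spinal cords, but the tissue labels give brainstem and were followed. In bulk tissue, fewer cells of a type and less RNA per cell cannot be told apart.

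*Cry2* and *Clock* were the most abundant members and *Npas2* the least. Per kb of exon, the mean level over the 12 libraries was 9.47 ± 1.31 CPM per kb (SD, n = 12) for *Cry2*, 8.87 ± 1.42 for *Clock*, 6.43 ± 2.06 for *Nr1d1*, and 5.84 ± 0.593 for *Cry1*. The next level per kb was 4.14 ± 0.946 CPM for *Dbp*, followed by 4.06 ± 0.578 for *Per3* and 3.90 ± 1.81 for *Per1*. *Arntl*, at 2.09 ± 0.182 CPM per kb, and *Per2*, at 2.08 ± 0.359, were nearly level, and *Npas2* was at 1.30 ± 0.235. Several neighbours in this order were not separated by their spread: *Cry2* was above *Clock* in 6 of the 12 libraries, *Nr1d1* above *Cry1* in 6, *Dbp* above *Per3* in 6, and *Arntl* above *Per2* in 5. *Per2* exceeded *Npas2* in 12 of 12 libraries and *Cry1* exceeded *Dbp* in 11. *Clock* and *Npas2*, whose proteins fill the same place in the activator, thus stood near opposite ends of the order.

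**Figure D1:**
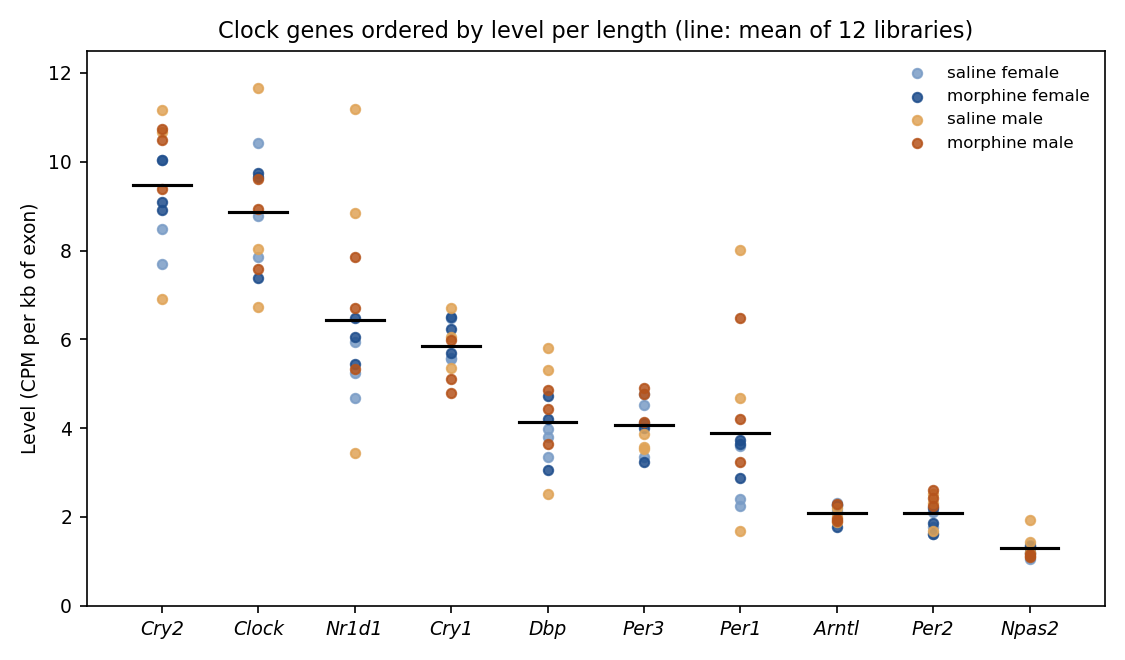
Level of each clock gene in CPM per kb of exon (vertical axis) for the 12 libraries, coloured by treatment and sex, with a line at the mean. *Cry2* (9.47) and *Clock* (8.87) are highest and *Npas2* (1.30) lowest, and *Nr1d1* and *Per1* spread most widely.

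The members differed widely in how steady they were from mouse to mouse. *Arntl* was the steadiest, with a coefficient of variation of 8.71% over the 12 libraries, and lay between 13.3 and 17.4 CPM. *Cry1*, between 15.98 and 22.4 CPM, varied by 10.2%. *Per1*, the member most readily induced by acute stimuli, varied by 46.3%, and *Nr1d1* by 32.0%. The lowest library of both was saline male 3, and the highest was saline male 1 for *Per1* and saline male 2 for *Nr1d1*.

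The period genes were read first. *Per1* was at 20.3, 12.6, and 13.5 CPM in the saline females and at 21.01, 20.5, and 16.2 CPM in the morphine females. In the saline males it was at 45.1, 26.3, and 9.51 CPM, and in the morphine males at 18.2, 23.7, and 36.5 CPM. The saline males thus bracketed all other libraries, and the treatments overlapped in both sexes. *Per2*, the period gene whose loss disrupts behavioral rhythms, was at 9.44, 10.4, and 12.4 CPM in the saline females and at 10.9, 12.9, and 9.41 CPM in the morphine females. It was at 14.8, 13.5, and 9.84 CPM in the saline males and at 13.1, 14.2, and 15.2 CPM in the morphine males. Apart from saline male 3, every male library lay above every female library.

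*Per3*, a period gene whose loss alone alters rhythms little, separated the treatments in males with the higher values after morphine. In the saline males it was at 33.9, 37.1, and 34.3 CPM, and in the morphine males at 47.1, 45.8, and 39.8 CPM, so the lowest morphine male was above the highest saline male. In the females the values were 32.1, 43.5, and 45.7 CPM after saline and 38.5, 39.4, and 31.2 CPM after morphine, with overlap.

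Among the repressor *Cry2* and the nuclear receptor *Nr1d1*, the same library was low again. *Cry2* was at 70.5, 67.5, and 43.6 CPM in the saline males and between 48.7 and 67.9 CPM in the other 9 libraries. *Nr1d1* was at 27.3, 34.4, and 10.5 CPM in the saline males and between 14.4 and 24.2 CPM in the other 9. *Dbp*, an output transcription factor of the PAR bZIP family, was at 15.9, 17.3, and 7.54 CPM in the saline males and between 9.15 and 14.5 CPM elsewhere. For *Nr1d1* and *Dbp*, the saline males therefore held both the 2 highest values and the lowest.

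The activators behaved differently. *Clock* was at 110.4, 92.3, and 160.0 CPM in the saline males, the reverse of the order of *Nr1d1*, and between 101.4 and 143.1 CPM in the other 9 libraries. *Npas2* was at 6.87, 9.30, and 5.80 CPM in the saline males and at 5.41, 5.52, and 5.26 CPM in the morphine males, which did not overlap. In the females *Npas2* ran from 5.08 to 6.60 CPM after saline and from 5.68 to 6.46 CPM after morphine. *Arntl* means were 16.4 ± 0.898 CPM in saline females, 15.8 ± 2.13 in morphine females, 15.2 ± 1.17 in saline males, and 15.5 ± 1.58 in morphine males (SD, n = 3 each).

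**Figure D2:**
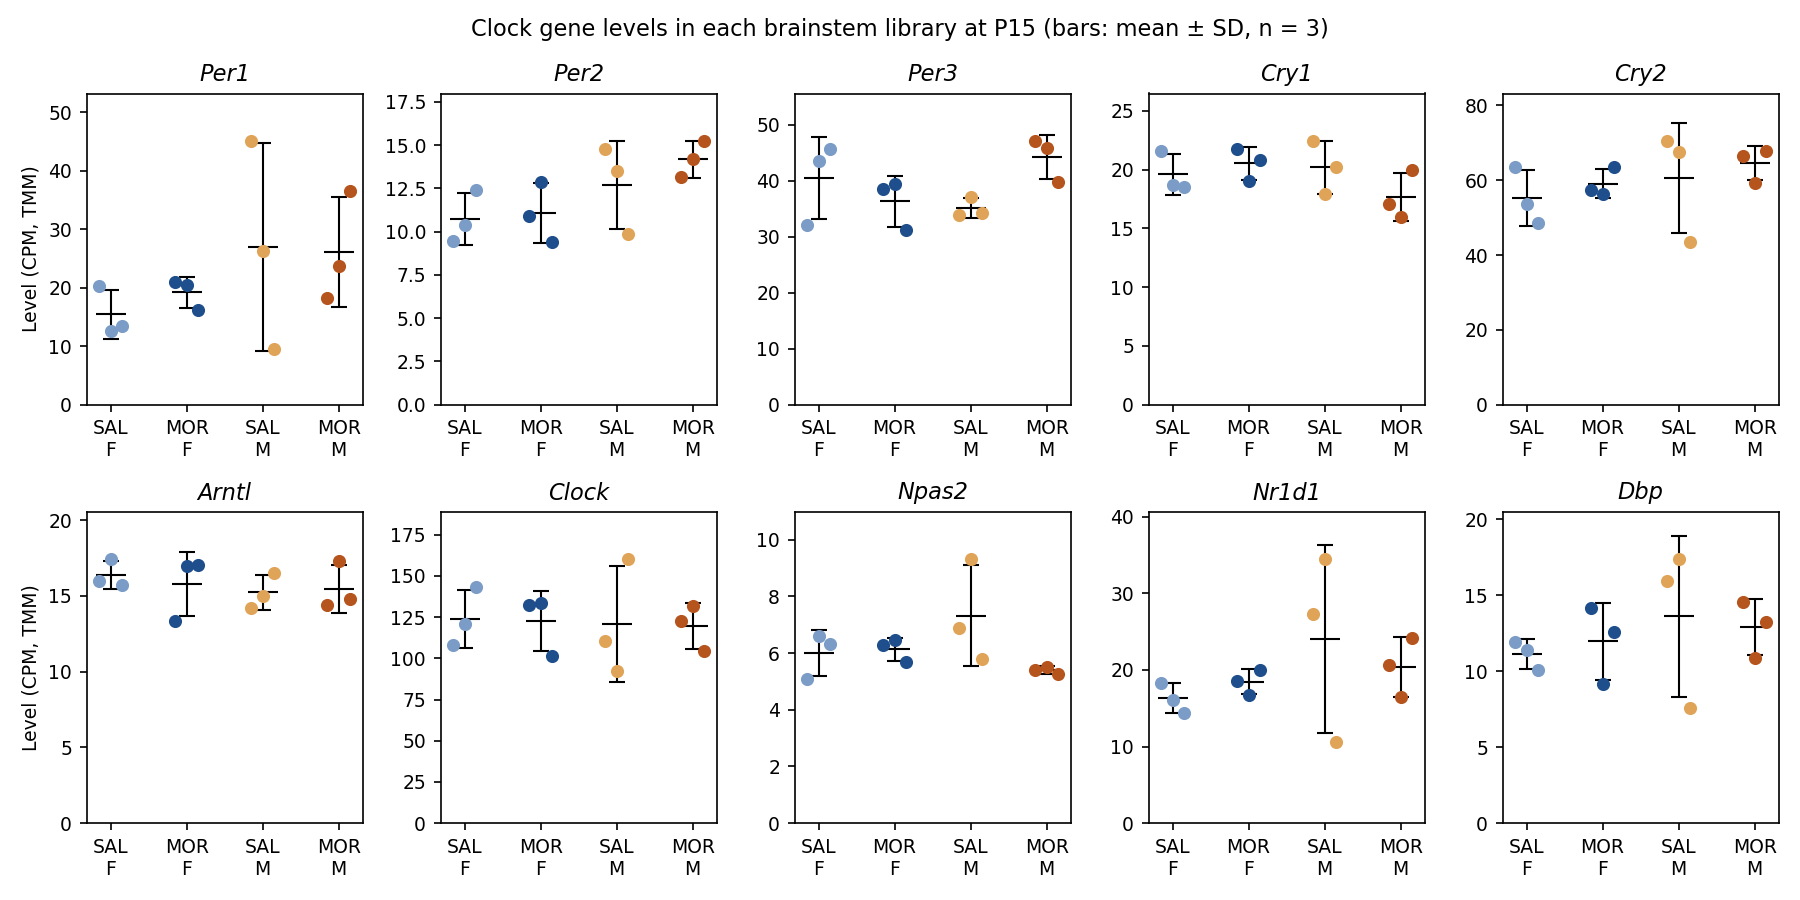
CPM after TMM normalization (vertical axes, from 0) of each clock gene in the 12 libraries, in 4 groups of 3 (SAL, saline, MOR, morphine, F, females, M, males), with bars for the mean ± SD. The saline males spread most in *Per1* (9.51 to 45.1 CPM) and *Nr1d1* (10.5 to 34.4 CPM), and the male treatments do not overlap in *Per3* and *Npas2*.

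The first comparison asked whether morphine exposure changed the clock genes in both sexes together. None of the 10 members was a DE gene, which needed a log2 fold change beyond 0.26 in either direction and *p* below 0.05 before adjustment in edgeR's quasi-likelihood test, here with sex as a covariate. DE genes made up 1.19% of the 18608 genes tested, and 0% had an adjusted *p* under 0.05. None of the members had an unadjusted *p* under 0.05 in edgeR or in DESeq2. The log2 fold changes of morphine over saline were small, with 5 members above 0 and 5 below and a median of -0.00, beside a median of -0.02 over all genes tested. *Npas2* had the largest, at -0.20 (SE 0.14, adjusted *p* = 1 in edgeR), and *Per1* the next, at 0.13 (SE 0.30). *Per2* was at 0.10 (SE 0.13), *Cry2* at 0.09 (SE 0.12), *Per3* at 0.09 (SE 0.12), and *Cry1* at -0.06 (SE 0.10). *Nr1d1* was at -0.03 (SE 0.23), *Arntl* at -0.02 (SE 0.10), *Clock* at -0.02 (SE 0.13), and *Dbp* at 0.01 (SE 0.19). The standard errors set what could have been seen: a change in *Per1* or *Nr1d1* had to be far larger than one in *Arntl* or *Cry1* to stand out. *Per1* was at -0.05 without saline male 3 and at 0.01 without the library labelled morphine male 6, and *Nr1d1* at -0.19 and *Dbp* at -0.13 without saline male 3. In exact permutation tests of 6 mice against 6, two-sided, the smallest *p* among the members was 0.177, for *Npas2*.

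**Figure D3:**
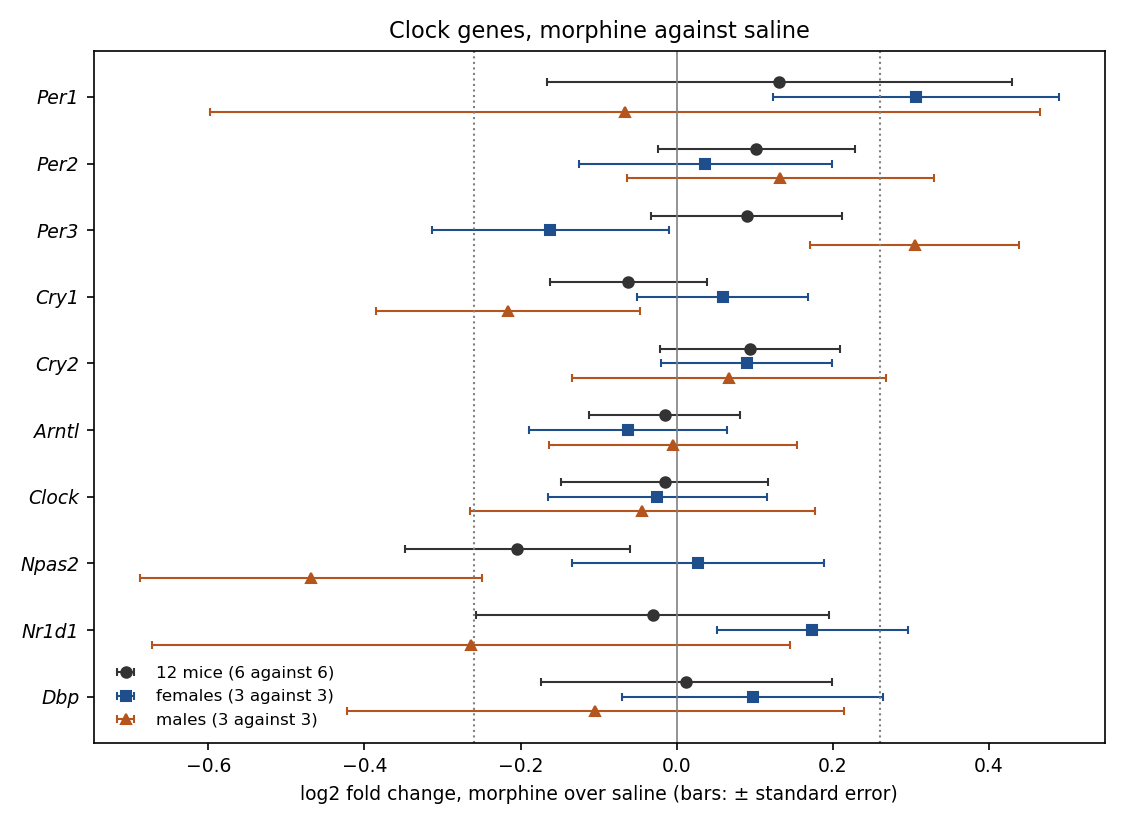
log2 fold change of morphine over saline (horizontal axis) for each clock gene in 12 mice, in females, and in males, with bars for ± 1 standard error and dotted lines at the threshold of 0.26 on either side. The values from 12 mice lie between -0.20 and 0.13, and those of *Per3* and *Npas2* in males are the farthest apart, at 0.31 and -0.47.

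In females, 0 of the 10 members were DE genes, where 1.81% of 18109 genes were, and 0% of genes passed with an adjusted *p*. As in the 12 mice, no member had an unadjusted *p* under 0.05 by edgeR or DESeq2, and the same held in males. The largest log2 fold change was that of *Per1*, at 0.31 (SE 0.18, adjusted *p* = 1 in edgeR), with 2 of the 3 morphine females above the highest saline female and the third within the saline range. *Nr1d1* was at 0.17 (SE 0.12) and *Per3* at -0.16 (SE 0.15). The other 7 lay between -0.06 and 0.10. Saline female 4 weighed on these values. Without it, *Per1* was at 0.54 and *Per3* at -0.31 and both met the DE thresholds, as did 7.95% of all genes.

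In males, 0 of the 10 members were DE genes, where 2.99% of 18166 genes were, and again 0% passed with an adjusted *p*. *Npas2* was at -0.47 (SE 0.22) and *Per3* at 0.31 (SE 0.13), each with an adjusted *p* of 1 in edgeR's quasi-likelihood test. For both, all 3 morphine males lay on one side of all 3 saline males, which gives an exact permutation *p* of 0.1, the smallest that 3 against 3 allow. Such separation was seen in 8.89% of the 18608 genes in the males, and 2 of the 10 members showed it. *Nr1d1* was at -0.26 (SE 0.41), *Cry1* at -0.22 (SE 0.17), *Per2* at 0.13 (SE 0.20), *Dbp* at -0.10 (SE 0.32), and *Per1* at -0.07 (SE 0.53). *Cry2* (0.07, SE 0.20), *Clock* (-0.04, SE 0.22), and *Arntl* (-0.00, SE 0.16) were closest to 0.

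Several male values depended on saline male 3. Without it, *Per3* (0.32), *Npas2* (-0.58), *Nr1d1* (-0.59), and *Dbp* (-0.36) met the DE thresholds, but so did 28.6% of all genes tested. *Per3* kept a log2 fold change between 0.26 and 0.37 whichever male library was left out. *Npas2* rested more on saline male 2, its highest library, and was at -0.26 without it. *Per1* was at -0.43 without saline male 3, at -0.40 without the library labelled morphine male 6, and at 0.51 without saline male 1, and did not meet the thresholds in these fits. *Nr1d1* was at -0.42 and *Cry1* at -0.32 without the library labelled morphine male 6. *Clock* (0.24) and *Cry2* (-0.09) changed sign without saline male 3. With the first principal component as a covariate, *Per3* was at 0.30 (adjusted *p* = 0.0295 in edgeR) and *Npas2* at -0.45, in a fit where 15.2% of all genes met the DE thresholds and 10.5% had an adjusted *p* under 0.05. That covariate was itself drawn from these libraries and was added after the data were seen.

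Markers of other tissues and cell types also differed by treatment in males, where 2.99% of all genes were DE genes and 37.6% had a log2 fold change above 0. All 6 choroid plexus markers were higher in the morphine males, 4 of them as DE genes, and their summed level was 417 to 841 CPM there and 266 to 521 CPM in the saline males. Of 5 cerebellar granule cell markers, 4 were higher, 3 of them as DE genes, with summed levels of 40.2 to 80.1 CPM against 31.2 to 32.1 CPM. All 7 oligodendrocyte markers were lower, 2 of them as DE genes, and so, with no DE gene, were 7 of 7 astrocyte and 7 of 8 neuron markers. Also lower with no DE gene were 6 of 7 microglia, all 4 tested red blood cell, and all 5 tested skeletal muscle markers. The skeletal muscle markers had a median log2 fold change of -2.03. Their summed level was 1.47 to 38.9 CPM in the saline males (median 4.47) and 2.66 to 5.1 CPM in the morphine males. In the females, all 6 meningeal fibroblast markers were lower after morphine, 2 of them as DE genes, with summed levels of 86.1 to 166 CPM against 140 to 215 CPM. Also lower there, with no DE gene, were all 6 choroid plexus markers, at a median log2 fold change of -0.81. Among all genes in females, 1.81% were DE genes and 48.2% had a log2 fold change above 0. In the 12 mice, 3 of 5 granule cell markers were DE genes. Apart from 1 red blood cell marker in the morphine females, no marker of these lists was at 0 in any group. The part of these lists in the values of *Per1*, *Per3*, and *Npas2* was not tested.

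Whether the effect of morphine differed between the sexes was asked with an interaction term. *Per3* was the 1 member of 10 to meet the thresholds, with a log2 difference of 0.48 (SE 0.21, males minus females), where 2.94% of 19027 genes met them and 0% had an adjusted *p* under 0.05. Its own adjusted *p* in edgeR was 0.985. The log2 fold change of *Per3* was 0.31 in males and -0.16 in females. The call was lost with the size factors of DESeq2, with no filter on low counts, and in 8 of the 12 fits that left out 1 library, namely saline males 1 and 3, saline females 5 and 6, morphine females 1 and 3, and morphine males 4 and 5. The log2 difference lay between 0.36 and 0.60 over those 12 fits. *Npas2* was at -0.48 (SE 0.27), *Nr1d1* at -0.42 (SE 0.45), and *Per1* at -0.36 (SE 0.61), which was -0.78 without saline male 3 and -0.68 without the library labelled morphine male 6. Without saline male 3, the calls passed to *Npas2* (-0.65) and *Nr1d1* (-0.80), in a fit that called 24.1% of all genes. In that edgeR fit, 1 of the 10 members had an adjusted *p* under 0.05, as did 9.22% of all genes. With all 12 libraries, all 6 choroid plexus markers had an interaction above 0 (median 1.61), 1 of them past the thresholds. So did 4 of 5 granule cell markers, 1 past the thresholds, and all 6 meningeal fibroblast markers, with none past. All 7 oligodendrocyte, all 7 astrocyte, and all 7 microglia markers were below 0 with none past. The same held for all 4 tested red blood cell and all 5 tested skeletal muscle markers. Among all genes, 45.6% were above 0. The part of these tissues in the value of *Per3* was not tested.

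Between the sexes, across treatments, *Per2* was lower in females, with a log2 difference of -0.30 (SE 0.13, females minus males) that met the thresholds. These were met by 3.94% of 18608 genes, and 0.0269% had an adjusted *p* under 0.05. The adjusted *p* of *Per2* was 0.734 in edgeR. Its level was 10.9 ± 1.46 CPM in the 6 females and 13.4 ± 1.93 CPM in the 6 males (SD), and an exact permutation test of that difference, two-sided, gave *p* = 0.0368 before any correction for the 10 members. The call was lost in 7 of the 12 fits without 1 library, namely saline males 1 and 2, saline females 4 and 5, morphine female 3, and morphine males 5 and 6. The library labelled morphine male 6 held the highest *Per2* value. *Per1* had a larger difference with a larger error, at -0.62 (SE 0.30), and did not meet the thresholds, and *Nr1d1* (-0.36, SE 0.23) and *Dbp* (-0.20, SE 0.19) did not either. Without saline male 3, all 4 met them, as did 20.9% of all genes. All 6 choroid plexus markers were lower in females, 4 of them past the thresholds, with a median log2 difference of -1.37 and summed levels of 10.5 to 474 CPM in the 6 females and 266 to 841 CPM in the 6 males. All 6 meningeal fibroblast and all 5 granule cell markers were lower too, 1 past the thresholds in each list. So were all 5 tested skeletal muscle markers, 1 past the thresholds, and all 4 tested red blood cell markers, with none past. Their part in the value of *Per2* was not tested.

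The members did not vary independently across the libraries. Over 12 libraries with group means removed, 5 of the 45 pairs had a Pearson correlation with an adjusted permutation *p* under 0.05. *Cry2* and *Nr1d1* varied together (r = 0.926, rho = 0.937, adjusted permutation *p* = 0.0141 and 0.0099), as did *Nr1d1* and *Dbp* (r = 0.918, rho = 0.846, adjusted permutation *p* = 0.0141 and 0.0326). *Cry2* and *Dbp* had r = 0.866 (adjusted permutation *p* = 0.0303) with rho = 0.79 (adjusted permutation *p* = 0.082). *Clock* ran opposite to *Nr1d1* (r = -0.898, rho = -0.909, adjusted permutation *p* = 0.0141 and 0.0099) and to *Cry2* (r = -0.894, rho = -0.881, adjusted permutation *p* = 0.015 and 0.0294). The raw permutation *p* values of these pairs ran from 0.00079 to 0.00337 for r. Without saline males 2 and 3, the libraries farthest from the median of *Clock* and of *Nr1d1*, *Clock* and *Nr1d1* were at r = -0.845, *Clock* and *Cry2* at -0.882, and *Nr1d1* and *Dbp* at 0.675. Leaving out saline males 1 and 3 gave 0.853 for *Cry2* and *Nr1d1* and 0.56 for *Cry2* and *Dbp*.

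No pair passed without saline male 3, within the 6 saline or the 6 morphine libraries, or without the 3 saline males. Within 6 libraries the orderings are too few for 1 pair alone to pass adjustment over 45 pairs. The failure to pass there therefore says little about those pairs. The signs of the 5 pairs were the same within saline (absolute r of 0.924 to 0.989) and within morphine (0.611 to 0.878). *Arntl* and *Dbp*, which peak at opposite times in a rhythmic tissue, had r = -0.622 (rho = -0.622, adjusted permutation *p* = 0.228 and 0.264). *Arntl* and *Nr1d1* had r = -0.434 (-0.278 without saline male 3), and *Per1* and *Per2* r = 0.667 (rho = 0.608, adjusted permutation *p* = 0.207 and 0.273), which was 0.271 without saline male 3. The largest r without saline male 3 was that of *Per3* and *Cry2*, at -0.891, a pair at -0.41 with all 12 libraries.

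**Figure D4:**
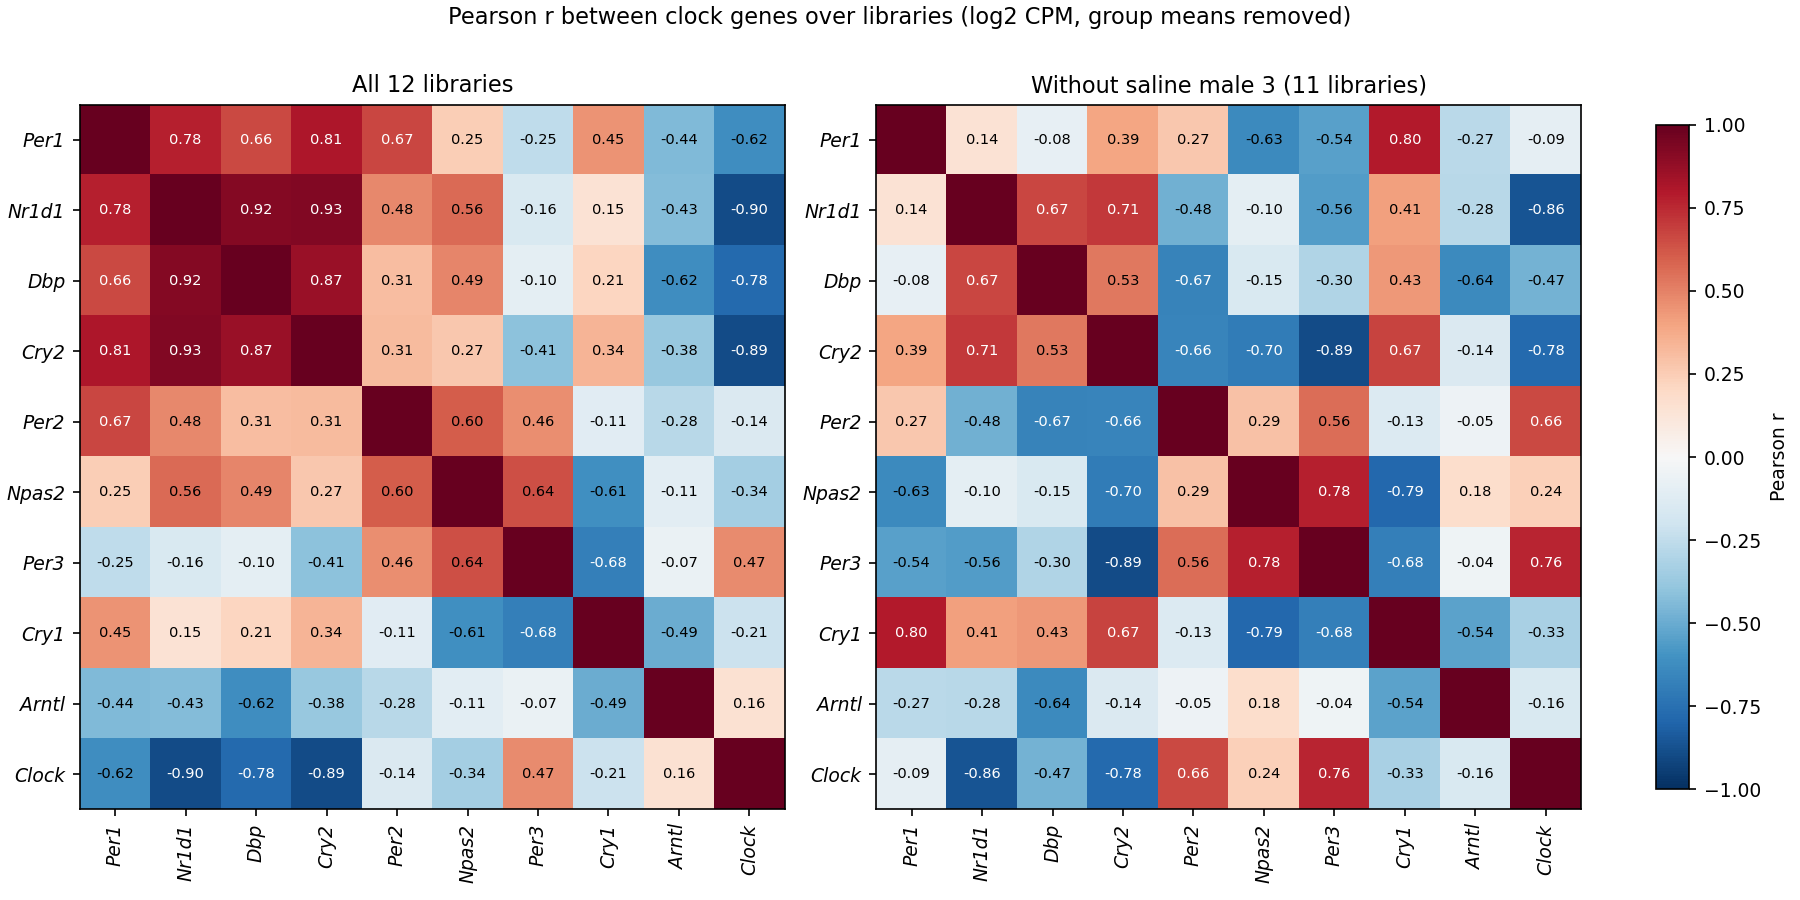
Pearson r for each pair of clock genes, with group means removed, over all 12 libraries and over the 11 without saline male 3, on a color scale from -1 to 1. *Nr1d1*, *Dbp*, and *Cry2* form a positive block (0.87 to 0.93) with *Clock* opposite, and the block is paler without saline male 3 (0.53 to 0.71).

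The same 4 members, and *Per1*, followed the main axis of the whole transcriptome. The correlation with the first principal component of the other 18598 genes was 0.969 for *Nr1d1*, 0.964 for *Cry2*, 0.893 for *Dbp*, 0.863 for *Per1*, and -0.907 for *Clock*, and no more than 0.425 in absolute size for the other 5. These are not unusual values in these libraries, since 40.6% of all genes had an absolute r over 0.8, and 8.23% of genes exceeded *Nr1d1* and 23.5% exceeded *Clock*. Across genes, which are not independent replicates, the correlation with this axis followed GC content (Spearman rho = 0.768) more than transcript length (rho = -0.229). *Dbp* (61.6% GC), *Per1* (59.4%), *Nr1d1* (56.8%), and *Cry2* (55.6%) are the 4 members richest in GC, and *Clock* (40.9%) is the poorest. Once the component was removed from each member, no pair passed, and *Cry2* and *Nr1d1* were at r = -0.119, *Clock* and *Nr1d1* at -0.179, and *Nr1d1* and *Dbp* at 0.475. Other pairs then had larger values. The largest were those of *Per3* and *Npas2*, at 0.89, and of *Npas2* and *Cry1*, at -0.858.

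Of 30 relations between the members and 3 library measures, 8 had an adjusted permutation *p* under 0.05 for Pearson's r. With the share of counts in ribosomal protein genes, *Cry2* had r = 0.953 (rho = 0.944, adjusted permutation *p* = 0.0039 and 0.0024), and *Dbp* (0.919), *Nr1d1* (0.907), and *Per1* (0.802) were also positive and *Clock* negative (-0.878). With the mitochondrial share, *Nr1d1* had r = -0.913 (rho = -0.846, adjusted permutation *p* = 0.0081 and 0.0164), *Cry2* -0.857, and *Clock* 0.771. Without the 2 libraries farthest from the median of each measure, *Cry2* was still at 0.943 with the ribosomal share, *Clock* at -0.726, *Nr1d1* at 0.678, *Per1* at 0.638, and *Dbp* at 0.497. *Nr1d1*, *Cry2*, and *Clock* were at no more than 0.324 in absolute size with the mitochondrial share, a relation that rests on those 2 libraries. Without saline male 3 alone, *Per1* was at 0.407 with the ribosomal share. Members that had not passed with the ribosomal share also moved. *Per3* went from r = -0.412 to -0.875 without the 2 libraries farthest from its median, and to -0.827 without saline male 3 alone. Without those 2 libraries, *Cry1* went from 0.424 to 0.767 and *Npas2* from 0.26 to -0.654. *Per2* went from 0.261 to -0.498 and *Arntl* from -0.465 to -0.096. No relation with the total count passed.

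**Figure D5:**
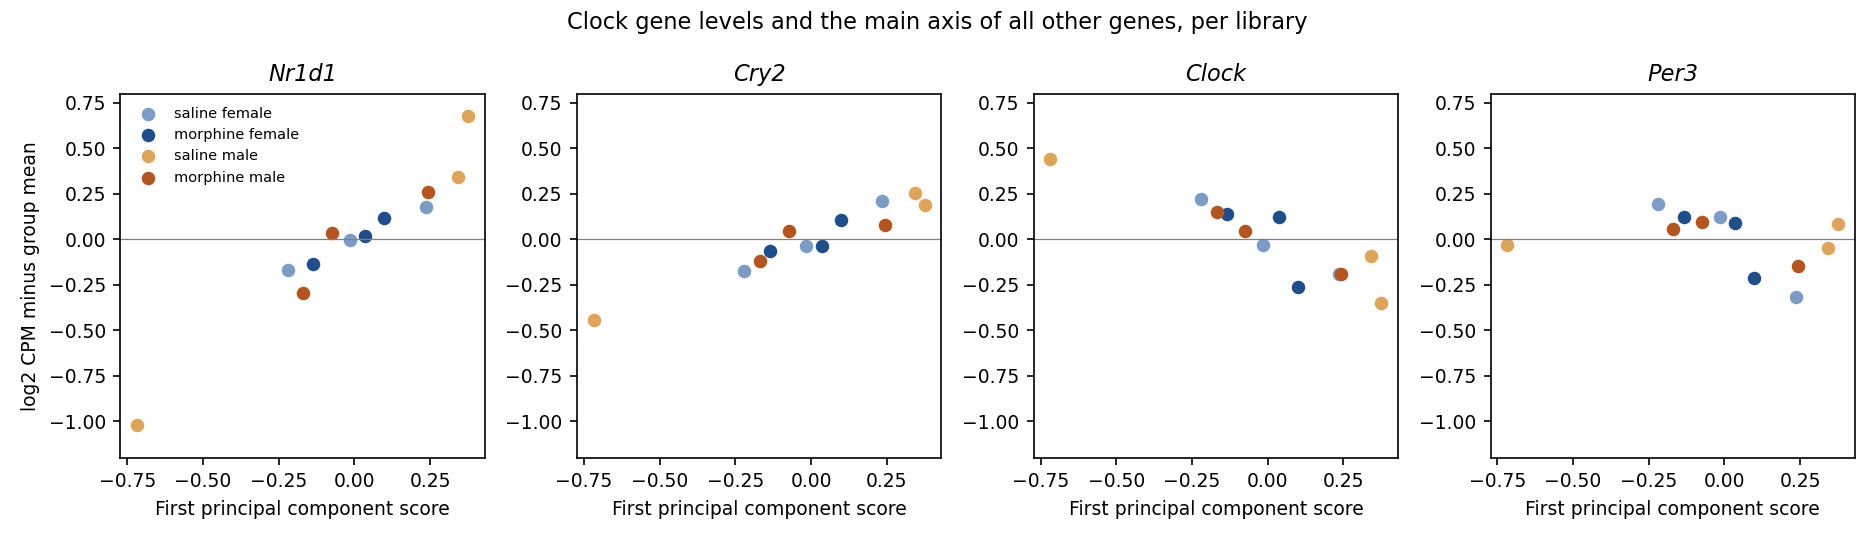
log2 CPM minus the group mean (vertical axes) of *Nr1d1*, *Cry2*, *Clock*, and *Per3* against the score of each of the 12 libraries on the first principal component of all other genes (horizontal axes), coloured by group. *Nr1d1* (r = 0.969) and *Cry2* (0.964) climb along it and *Clock* (-0.907) descends, with saline male 3 at the far left, while *Per3* (-0.329) follows it loosely.

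Exons of several members overlap those of a neighbouring gene. *Nr1d1* shares 263 exonic bases with *Thra* on the opposite strand, *Dbp* 539 with *Sphk2*, *Cry2* 295 with *D930015M05Rik*, and *Arntl* 33 with *Gm45355*. Whether counting used the strand is not given in the sources used here. *Thra*, the thyroid hormone receptor α gene, was at 349.1, 317.5, and 130.8 CPM in the saline males and between 143.3 and 256.9 CPM elsewhere. *Sphk2*, a sphingosine kinase gene, was at 24.9, 27.9, and 4.54 CPM in the saline males and between 6.96 and 13.6 CPM elsewhere. Like *Nr1d1* and *Dbp*, both were lowest in saline male 3 and highest in 1 of the other saline males, and their share in those counts was not tested. *D930015M05Rik* lay between 0.245 and 1.00 CPM, far below *Cry2*, and *Gm45355* was at no more than 0.029 CPM in any library, far below *Arntl*.

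The pattern of each member was also set against all other genes. Among 15055 genes with a mean of at least 1 CPM, those closest to *Nr1d1* over the 12 libraries were *Nrxn2* (r = 0.996), *Xylt2* (0.995), and *Ddx41* (0.994), and *Cry2* was closest to *Rras* (0.996), *Lynx1*, and *Entpd6*. *Clock* was closest to *Map3k2* (0.997), *Klhl24*, and *Tnpo1*, and *Dbp* to *Khk* (0.982), *Zfp513*, and *Disp1*. *Per1* was nearest to *Mxd4* (0.974), *Kcng2*, and *Nrros*, *Per2* to *Pigb* (0.967), *2900052L18Rik*, and *Prdm15*, and *Per3* to *Sfxn2* (0.957), *Neat1*, and *Zfp827*. *Arntl* was nearest to *Prdm8* (0.93), *Crh*, and *Myl12a*, *Npas2* to *Myh11* (0.965), *Ikzf4*, and *Gm15612*, and *Cry1* to *Pcdhgb8* (0.92), *Rpain*, and *Rdh12*. No member was among the 3 nearest of another, and *Nr1d1*, the member nearest to *Dbp*, stood at rank 389 for it.

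Further parts of the clock also held no DE gene by treatment in the 12 mice. In the sex-combined fit, 0 of 9 loop factors, 0 of 3 PAR bZIP and *Nfil3* genes, 0 of 12 kinases and ubiquitin ligases, and 0 of 10 cofactors were DE genes. The share over all 18608 genes was 1.19%. The loop factors with the largest log2 fold changes were *Arntl2*, the paralog of *Arntl*, at 0.32 (SE 0.31), and *Ciart*, a repressor of CLOCK and BMAL1, at 0.14 (SE 0.11). In the output family, *Nfil3* was at 0.07 (SE 0.14) and *Tef* at 0.07 (SE 0.07). *Csnk1a1*, a casein kinase gene, was at -0.08 (SE 0.12) and *Usp2*, a deubiquitinase gene, at 0.07 (SE 0.09), and among cofactors the histone methyltransferase gene *Kmt2a* was at 0.19 (SE 0.13) and *Hdac3*, the deacetylase gene that acts with REV-ERBα, at 0.13 (SE 0.07). *Kmt2a* was the 1 gene of these 4 lists called in any comparison, higher in morphine males at 0.39 (SE 0.14, adjusted *p* = 1 in edgeR). In that fit, 2.99% of all genes were called. Medians of the 4 lists lay between -0.00 and 0.07, beside -0.02 for all genes.

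Glucocorticoids and neuronal activity both induce *Per1*, so their other target genes were listed beside it. None of 8 glucocorticoid targets was a DE gene in the sex-combined fit or in either sex. The shares over all genes were 1.19% in that fit, 1.81% in females, and 2.99% in males. *Zbtb16* was at -0.24 (SE 0.15) and *Errfi1* at -0.12 (SE 0.09). None of 9 immediate early genes was a DE gene by treatment, beside the same shares of all genes. Among them, *Junb* (-0.55, SE 0.44) and *Ier2* (-0.38, SE 0.39) had the largest values in the sex-combined fit. In males all 9 were lower, with *Junb* at -1.28 (SE 0.64) and *Ier2* at -1.08 (SE 0.59), where 37.6% of all genes were above 0. In females 6 of 9 were higher, with *Junb* at 0.24 (SE 0.39) and *Ier2* at 0.31 (SE 0.28), where 48.2% of all genes were above 0. Between the sexes, *Fos* (-0.30, SE 0.13) and *Junb* (-0.98, SE 0.44) met the thresholds with lower levels in females, each with an adjusted *p* of 0.734 in edgeR, where 3.94% of all genes met them. All 9 immediate early genes had a negative value in that comparison, in which 51.1% of all genes were above 0.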

How the data were processed

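RNA from 12 mice at P15 was measured by 100 bp single-end sequencing of 1 pool on 1 lane. The authors trimmed reads with Trimmomatic, mapped them with STAR (mm10), and assigned them to exons by featureCounts, per the study's methods and the submitters' processing notes, and the deposited values are raw counts per gene (whole numbers with differing totals). Samples were grouped by the labels for treatment and sex. Levels are TMM-normalized CPM, and log2 levels added a prior count of 2.

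Each comparison was fitted over all genes kept by filterByExpr in R 4.3.3 by edgeR 4.0.16 (glmQLFit and glmQLFTest), and p-values were adjusted by Benjamini and Hochberg. DESeq2 1.42.0 was an alternative. The scripts were tested on simulated data. Nothing states that the mice came from separate litters, so p-values measure only the spread between these samples. The study's methods describe a mixed-litter design, with pups of each litter randomly assigned to saline or to morphine. Littermates may thus be in both treatments, and with no litter label the fits took no account of litter. Correlations used 100000 permutations of the group-centred values over all libraries used, not within groups (SciPy 1.17.1, NumPy 2.4.6). Permuted values were centred on the groups again, and libraries of all groups were treated as exchangeable. Within the saline or the morphine libraries alone, every ordering was used, with no centring on groups. The 10 members were all named. From the 6 lists of further clock, glucocorticoid, and immediate early genes, those called in any of 5 fits and the 2 with the largest sex-combined change per list were named, as were the 3 genes most correlated with each member. Marker lists were counted. Members and lists were chosen with earlier results of these data known. Gene positions and lengths came from GENCODE M21. Same-numbered saline and morphine mice were not paired by any label.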

Additional observations from a re-analysis of the deposited data

Results flagged for a closer look

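*Per1* in the library labelled morphine male 6 reached 36.5 CPM, far above the other 5 morphine libraries, which lay between 16.2 and 23.7 CPM. Its gap to the next library was 0.631 of the range of the 6 morphine libraries, against a limit of 0.625. Of 20 groups of 6 libraries given this test, 1 was past the limit, and chance alone places about 1 in 20 there. This is the library whose sex-linked transcripts go against its label.

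The effect of morphine on *Per3* differed between the sexes by 0.48 on the log2 scale (males minus females) in the interaction test of edgeR, with an adjusted *p* of 0.985. All 3 morphine males lay above all 3 saline males, and the females overlapped.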

How the results depend on the processing

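The count of members called did not change from 0 in the sex-combined comparison under any alternative run, including DESeq2, exactTest, no covariate, and the fit without each library. With the replicate block it was also 0, and 1.04% of all genes were called. The deviations of same-numbered mice from their group means correlated between -0.36 and 0.18, which gave no sign of pairing by number. They could not exclude it, since 1 component held 47.2% of the variance after removal of group means. In females, 1 member (*Per1*) was called with no filter on low counts and 1 (*Per1*) with the first principal component as a covariate, and 0 to 2 without 1 library, the 2 without saline female 4. In males, 1 (*Per3*) was called with the size factors of DESeq2 and 1 (*Per3*) with scaling by total counts. There were 2 (*Per3* and *Npas2*) in the contrast from the fit of all 12 libraries and 2 with the first principal component, and 0 to 4 without 1 library, the 4 without saline male 3. For the interaction, 0 were called with the size factors of DESeq2 and 0 with no filter, and 0 to 2 without 1 library. Between the sexes, 2 (*Per1* and *Per2*) were called by DESeq2 and 2 with no filter, and 0 to 4 without 1 library. The cause of these changes was not tested.

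Of the 45 pairs, 10 passed with no centring, 0 within the 6 saline libraries, 0 within the 6 morphine libraries, 0 without the 3 saline males, 0 with the first principal component removed, and 0 to 6 without 1 library, the 0 without saline male 3 and 3 without saline male 2 or saline female 6. Within 6 libraries, 1 pair alone could not have passed, because the orderings are too few. The alternatives without the saline males and with the component were chosen after seeing the data. The relations with library measures numbered 12 with no centring.

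Values near 0 changed sign, and so did some farther from it, such as *Nr1d1* in males (-0.26) and the interaction of *Per1* (-0.36). In the 12 mice, scaling by total counts gave 0.032 for *Arntl*, 0.033 for *Clock*, and 0.019 for *Nr1d1*. The replicate block gave 0.00070 for *Clock* and 0.036 for *Nr1d1*, the first principal component as a covariate gave 0.0014 for *Clock* and 0.041 for *Nr1d1*, and no filter gave -0.00018 for *Dbp*. In males, scaling by total counts gave 0.055 for *Per1*, 0.12 for *Arntl*, 0.082 for *Clock*, and 0.021 for *Dbp*, the first principal component gave 0.12 for *Per1*, DESeq2 and its size factors both gave 0.014 for *Arntl*, and the fit of all 12 libraries gave 0.021 for *Arntl*. Without 1 library, the sex-combined log2 fold changes ran from -0.050 to 0.41 for *Per1*, from -0.059 to 0.015 for *Arntl*, from -0.088 to 0.080 for *Clock*, from -0.0060 to 0.15 for *Cry2*, from -0.19 to 0.15 for *Nr1d1*, and from -0.13 to 0.12 for *Dbp*. Those of females ran from -0.086 to 0.16 for *Per2*, from -0.12 to 0.048 for *Arntl*, from -0.12 to 0.10 for *Clock*, from -0.081 to 0.11 for *Npas2*, and from -0.040 to 0.26 for *Dbp*. Those of males ran from -0.43 to 0.51 for *Per1*, from -0.060 to 0.087 for *Arntl*, from -0.21 to 0.24 for *Clock*, from -0.089 to 0.18 for *Cry2*, from -0.59 to 0.085 for *Nr1d1*, and from -0.36 to 0.11 for *Dbp*, and the interaction of *Per1* ran from -0.78 to 0.23. Of 588 fold changes under the alternatives, 494 kept their direction and their side of the thresholds.

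Another scaling moved the split of all DE genes by direction. Of those in males, 64.3% were higher after morphine, 72.5% with the size factors of DESeq2 and 91.3% with total counts. The shares were 51.1% and, with total counts, 72.7% in the 12 mice, and 54.7%, 45.8%, and 81.2% for the interaction. *Npas2*, the least abundant member, carries the largest counting error. With 3 mice per group, differences had to be well above their standard errors to be detected. *Npas2* in males, at -0.47 (SE 0.22), had an unadjusted *p* of 0.07 in edgeR's quasi-likelihood test.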
